A study of Mus musculus with 16 samples.

Results

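Ptgs1, Ptgs2, Ptges, Alox5, Lta4h and Anxa1 encode enzymes and a regulator of the lipid mediators of inflammation. Every assay whose gene name is one of these symbols was taken from a table of cycle thresholds of colonic mucosa, which gave 6 of 584 genes and 11 of 648 assays. Alox5 had 6 assays and each of the other genes had 1. The samples were 16 preparations of mouse colonic mucosa RNA in 4 groups of 4, measured by quantitative PCR on a TaqMan OpenArray mouse inflammation panel, on which each assay runs in a well of its own. In the first group, called DNBS_CEC, the hapten dinitrobenzene sulfonic acid (DNBS), which causes colitis, was given into the rectum and CEC by mouth. What CEC stands for is not stated in the labels. The second group, DNBS_Nissle, had intrarectal DNBS and oral Nissle, the name of a probiotic strain of Escherichia coli. The third, DNBS, had intrarectal DNBS and oral buffer (PBS), and the fourth, the healthy group, had PBS by both routes. Strain, sex, age, dose and day of sampling were not given in the sources used here. The series text speaks of equal RNA of each mouse being pooled, while every sample carries a number of its own, so a p-value here measures only the spread between these samples.

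Prostaglandins and leukotrienes are made from arachidonic acid that phospholipases A2 release from membranes. Cyclooxygenases, encoded by the constitutive Ptgs1 and the inducible Ptgs2, start the prostaglandin branch, in which Ptges, the inducible microsomal prostaglandin E synthase, makes prostaglandin E. Arachidonate 5-lipoxygenase, encoded by Alox5 and helped by the membrane protein Alox5ap, makes leukotriene A, which the leukotriene A hydrolase Lta4h turns into the neutrophil attractant leukotriene B. Anxa1 encodes annexin A1, a glucocorticoid-induced protein that acts on formyl peptide receptors and is known for limiting neutrophil entry and for promoting the resolution of inflammation. In the gut, prostaglandin E also supports repair of the epithelium.

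The stretches just before the transcription start of Ptgs2 and Anxa1 are shown because these were the 2 members with an unadjusted p under 0.05 in a comparison between groups, a choice made after their values were seen. They are 150 bases long, read 5′ to 3′ on the strand of the gene and end at the base before the start in RefSeq annotation of build GRCm38.p6. The window of Ptgs2 lies at chr1:150099881-150100030 on the plus strand, and its capitals mark the palindrome TTGCGCAA, a form of the C/EBP motif. The window of Anxa1 lies at chr19:20390672-20390821 on the minus strand, and its capitals mark a TATA box, TATAAA.
Ptgs2: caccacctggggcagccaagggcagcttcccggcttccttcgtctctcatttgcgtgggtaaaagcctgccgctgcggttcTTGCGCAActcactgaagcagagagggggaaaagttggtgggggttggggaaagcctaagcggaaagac
Anxa1: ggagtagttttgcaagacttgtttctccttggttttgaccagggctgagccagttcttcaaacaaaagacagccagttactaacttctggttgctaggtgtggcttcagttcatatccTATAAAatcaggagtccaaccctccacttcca
All 6 genes had a RefSeq promoter, and 6 motifs were searched on both strands of these 150 bases. Among them were the C/EBP palindrome TTGCGCAA, the cyclic AMP response palindrome TGACGTCA, the E-box with letters CACGTG and the TATA box shown for Anxa1. The rest were the GC box with letters GGGCGG, which Sp family proteins bind, and a single strict form of the NF-kB site. TTGCGCAA stood 69 to 62 bases before the start of Ptgs2 and in 0.113% of the 32851 RefSeq promoters. The TATA box stood 32 to 27 bases before the start of Anxa1 and in 7.57% of promoters. The GC box was found 2 times in Ptges and 1 time in Alox5, and in 28.6% of promoters. The cyclic AMP response palindrome, the E-box and the strict NF-kB form were not found in these windows of the 6 genes. Ptgs1 and Lta4h held none of the 6 motifs there. The strict NF-kB form stood in only 0.228% of promoters, and other forms of the NF-kB site were not searched. A match describes the letters only, and bases outside these windows, such as those past the annotated start, were not searched.

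Levels are given as −ΔCt, the Ct averaged over 11 reference genes less that of the gene in question, so that a value higher by 1 stands for about double the RNA relative to the reference genes. Assays differ in efficiency, so no gene's level was set against another's. Summed levels of marker lists add the linear levels of several assays and serve only to compare samples. All 11 member assays crossed the detection limit of Ct 28 in every sample, with Ct values of 16.29 to 27.09. Between 528 and 564 of the 648 assays were detected per sample. Of the 16 samples, DNBS_CEC sample 2 and DNBS_Nissle sample 4 stood apart from the others on the second principal component of all genes detected in every sample, at 13.3 and 15.3, so the differences they turned or moved most, and the correlations between genes, are given also without them. Epithelial cells could be checked by 1 of 8 markers only, Muc1, which was detected in every group, and the mucosa label was not tested further. The linear level of Muc1 was 0.081 to 0.749 in DNBS_CEC, 0.112 to 0.416 in DNBS_Nissle, 0.106 to 0.189 in DNBS and 0.0428 to 0.107 in healthy samples. Summed levels of the 6 neutrophil markers present (of 10 listed: S100a8, S100a9, Ltf, Camp, Il8rb and Mmp25) were 0.0552 to 3.69 in DNBS_CEC, 2.87 to 6.83 in DNBS_Nissle, 0.326 to 35.7 in DNBS and 0.018 to 0.0752 in healthy samples, in which Camp was not detected. Those of 4 monocyte and macrophage markers (of 9 listed) were 0.299 to 0.569 in DNBS_CEC, 0.318 to 0.859 in DNBS_Nissle, 0.386 to 1.23 in DNBS and 0.259 to 0.481 in healthy samples. Those of 2 mast cell markers (of 7 listed), Kit and Fcer1a, were 0.0702 to 0.288 in DNBS_CEC, 0.103 to 0.275 in DNBS_Nissle, 0.128 to 0.26 in DNBS and 0.241 to 0.364 in healthy samples, and Fcer1a was detected in no sample outside DNBS. Those of 5 adipocyte markers (of 6 listed) were 0.338 to 1.92 in DNBS_CEC and 0.617 to 1.08 in DNBS_Nissle. They were 1.36 to 3.12 in DNBS and 0.931 to 5.45 in healthy samples, and Lep was not detected in DNBS_Nissle. The part of fat tissue in these mucosa samples was not tested. In such bulk samples, fewer cells of a type and less RNA per cell cannot be told apart.

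Ptgs2, the inducible cyclooxygenase, was the member that varied most. Its −ΔCt was −5.80, −7.27, −6.59 and −6.82 in DNBS_CEC samples 1, 2, 6 and 8, and −3.44, −4.80, −3.13 and −6.78 in DNBS_Nissle samples 1, 4, 5 and 7. It was −6.24, −2.47, −5.20 and −7.32 in DNBS samples 2, 3, 4 and 5, against −6.58, −7.89, −6.07 and −6.54 in healthy samples 3, 4, 5 and 6. In DNBS_Nissle 3 of the 4 samples, and in DNBS 2 of the 4, lay above every healthy sample, whereas DNBS_Nissle sample 7 and DNBS samples 2 and 5 lay within the healthy range. The 4 DNBS_CEC samples lay close together, and only DNBS_CEC sample 1 was above the healthy range. DNBS sample 3, with the highest Ptgs2 of all 16 samples, also had the highest summed neutrophil markers, 35.7, and the part of these cells in its Ptgs2 was not tested.

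The group means of Ptgs2 were −6.62 ± 0.62 in DNBS_CEC, −4.54 ± 1.66 in DNBS_Nissle, −5.31 ± 2.08 in DNBS and −6.77 ± 0.79 in healthy samples (SD, n = 4 each). The order was therefore DNBS_Nissle, DNBS, DNBS_CEC and healthy, and each group's range overlapped that of its neighbour in this order. DNBS_Nissle exceeded healthy by 2.23 ± 0.91 (SE) on the log2 scale, 4.69-fold, with a limma p of 0.0271 before and 0.212 after Benjamini-Hochberg adjustment over 473 genes. DNBS exceeded healthy by 1.46 ± 0.91 (limma adjusted p = 0.642), a difference that was 0.52 without DNBS sample 3 and 2.13 without DNBS sample 5. DNBS_CEC differed from DNBS_Nissle by −2.08 ± 0.92, with a limma p of 0.0382 before and 0.774 after adjustment, and from DNBS by −1.31 ± 0.92 (limma adjusted p = 0.867), which was −0.37 without DNBS sample 3. Between DNBS_CEC and healthy the difference was 0.15, with a 95% interval of −1.79 to 2.09. The intervals for Ptgs2 thus spanned several log2 units, and no comparison of Ptgs2 passed the adjusted threshold of 0.05. The deposited Ct of healthy sample 3 equalled the mean Ct of the other 3 healthy samples, so it adds no independent value.

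Ptgs1, the constitutive cyclooxygenase, had −ΔCt values of −3.18, −5.46, −3.16 and −3.36 in DNBS_CEC samples 1, 2, 6 and 8, and of −3.34, −6.48, −3.24 and −4.22 in DNBS_Nissle samples 1, 4, 5 and 7. They were −2.58, −3.81, −3.72 and −2.97 in DNBS samples 2, 3, 4 and 5, against −3.63, −4.11, −3.02 and −4.24 in healthy samples 3, 4, 5 and 6. The samples that stood apart, DNBS_CEC sample 2 and DNBS_Nissle sample 4, were the lowest of all 16, and the other samples lay within a common range of −4.24 to −2.58. Means ran from DNBS (−3.27 ± 0.59) through healthy (−3.75 ± 0.55) and DNBS_CEC (−3.79 ± 1.12) to DNBS_Nissle (−4.32 ± 1.51), with every neighbouring pair overlapping. DNBS_Nissle differed from healthy by −0.57 ± 0.67 and DNBS_CEC by −0.04 ± 0.67 (limma adjusted p = 0.716 and 0.985). Without the 2 samples these differences were 0.15 and 0.52, so the direction of both turned.

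Ptges, the terminal synthase of the prostaglandin E branch, showed the same pair of low samples. Its −ΔCt was −5.41, −6.76, −4.93 and −4.88 in DNBS_CEC samples 1, 2, 6 and 8, and −3.43, −7.67, −5.19 and −5.59 in DNBS_Nissle samples 1, 4, 5 and 7. It was −3.46, −4.16, −5.20 and −4.86 in DNBS samples 2, 3, 4 and 5, against −5.51, −5.15, −5.16 and −5.50 in healthy samples 3, 4, 5 and 6. Healthy samples lay between −5.51 and −5.15, whereas the DNBS_Nissle samples spanned both the highest and the lowest level of all 16. Of the 4 DNBS samples, 3 were above every healthy sample, and the remaining one was within the healthy range. The mean was −5.49 ± 0.88 in DNBS_CEC, −5.47 ± 1.74 in DNBS_Nissle, −4.42 ± 0.77 in DNBS and −5.33 ± 0.20 in healthy samples. DNBS exceeded healthy by 0.91 ± 0.69 (limma adjusted p = 0.753), while DNBS_CEC and DNBS_Nissle differed from DNBS by −1.07 ± 0.69 and −1.05 ± 0.69 (limma adjusted p = 0.867 and 0.98). Without DNBS_CEC sample 2 and DNBS_Nissle sample 4, those last differences were −0.65 and −0.32.

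**Figure D1:**
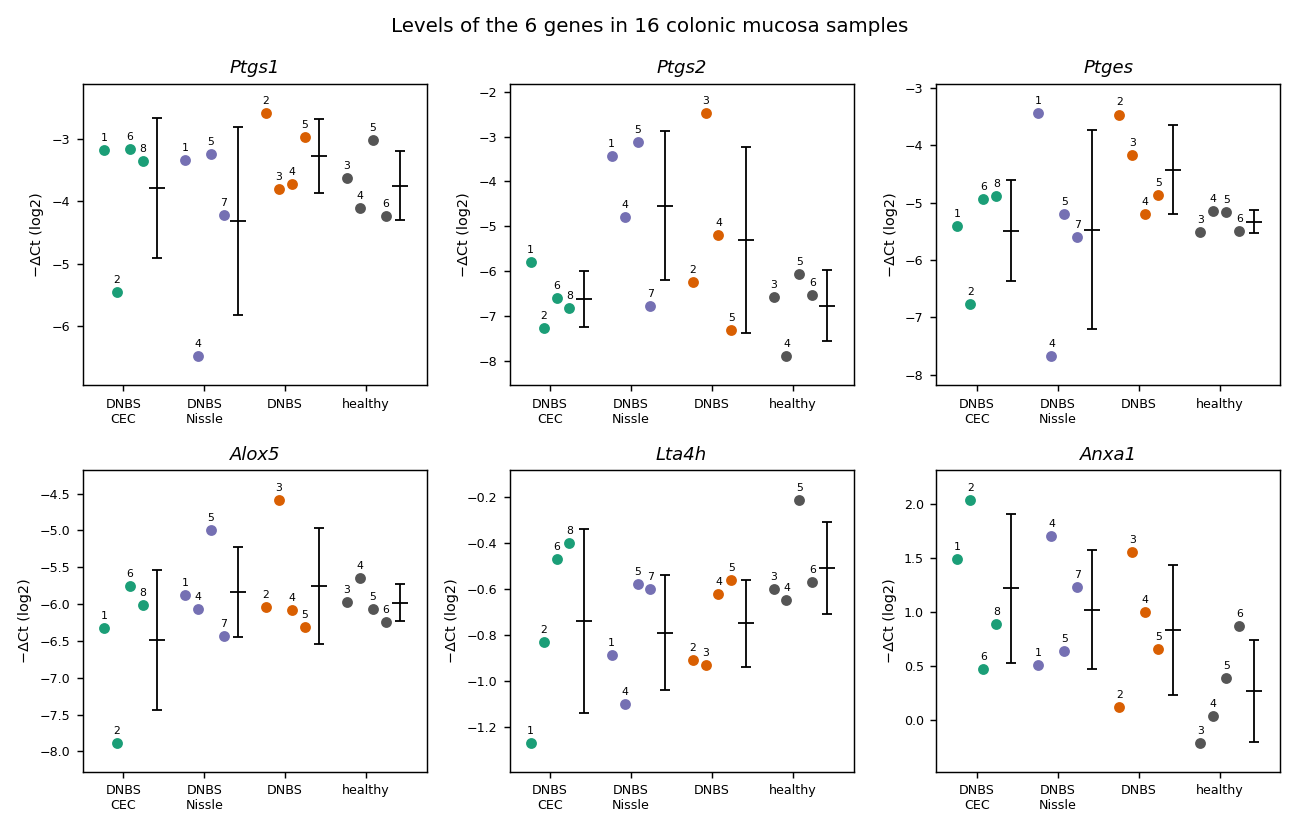
Level of each of the 6 genes (−ΔCt, log2 scale, higher means more RNA relative to the reference genes) in the 16 samples, by group, with the sample number beside each point and the group mean ± SD as a bar to its right. Ptgs2 varies most, DNBS_CEC sample 2 and DNBS_Nissle sample 4 are the lowest points of Ptgs1 and Ptges, and the 4 groups overlap for every gene.

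Alox5, which starts leukotriene synthesis, was measured by 6 assays whose mean gave the gene's level. That level was −6.32, −7.88, −5.76 and −6.01 in DNBS_CEC samples 1, 2, 6 and 8, and −5.87, −6.06, −4.99 and −6.43 in DNBS_Nissle samples 1, 4, 5 and 7. It was −6.04, −4.58, −6.08 and −6.31 in DNBS samples 2, 3, 4 and 5, against −5.97, −5.64, −6.06 and −6.24 in healthy samples 3, 4, 5 and 6. Apart from DNBS_CEC sample 2 at the low end and DNBS sample 3 and DNBS_Nissle sample 5 at the high end, the samples lay between −6.43 and −5.64. DNBS_CEC averaged −6.49 ± 0.95, DNBS_Nissle −5.84 ± 0.61, DNBS −5.75 ± 0.79 and healthy −5.98 ± 0.25. The differences from healthy were −0.51 ± 0.48 in DNBS_CEC, 0.14 ± 0.48 in DNBS_Nissle and 0.23 ± 0.48 in DNBS (limma adjusted p = 0.847, 0.927 and 0.983). Without DNBS_CEC sample 2 the first was −0.05, and without DNBS sample 3 the last was −0.16.

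The 6 Alox5 assays allowed the same RNA to be read several times in each sample. Over the 16 samples, the 15 pairs of assays correlated with Pearson's r of 0.70 to 0.91 and a median of 0.80, which is a description of assays that share the sample and its reference genes. Within a sample the assays spread over 0.64 to 1.73 cycles, most in DNBS_Nissle sample 5. The lowest value, that of healthy sample 3, rests on 4 measured assays, because its Ct values for Alox5_Mm01182747_m1 and Alox5_Mm01182749_m1 equalled the mean of the other healthy samples. DNBS_CEC was lower than DNBS in 6 of 6 assays, by differences of −1.01 to −0.41, and lower than DNBS_Nissle in 6 of 6, by −1.02 to −0.34, and with each of the other 3 ways of setting the reference all 6 kept that direction. Both counts rest on DNBS_CEC sample 2: without it 5 of 6 assays were lower than in DNBS, with differences of −0.73 to 0.09, and 5 of 6 lower than in DNBS_Nissle (−0.44 to 0.16), Alox5_Mm01182748_m1 being the one that turned in both. Without DNBS sample 3 the first count was also 5 of 6 (−0.66 to 0.01). The assays read the same RNA samples, and their agreement is no replication of the groups. Among single assays, Alox5_Mm01182749_m1 differed by −1.01 ± 0.38 between DNBS_CEC and DNBS, with a limma p of 0.0197 before and 0.89 after adjustment over 542 assays. That difference was −0.73 ± 0.38 without DNBS_CEC sample 2 and −0.66 ± 0.35 without DNBS sample 3, with unadjusted limma p-values of 0.0751 and 0.0827 and adjusted ones of 0.98 and 0.971. Its values were −6.37, −7.50, −6.44 and −6.39 in DNBS_CEC samples 1, 2, 6 and 8, against −5.98, −4.63, −5.64 and −6.43 in DNBS samples 2, 3, 4 and 5, so that only DNBS sample 5 fell inside the DNBS_CEC range. No Alox5 assay passed the adjusted threshold in any of the 7 comparisons, where the share of all assays that passed was 0% in DNBS_CEC, 2.49% in DNBS_Nissle, 0.191% in DNBS and 1.93% in the mean of the 3, each against healthy, and 0% in each comparison among the DNBS groups. Against healthy, DNBS was higher in 5 of 6 assays (−0.01 to 0.45) and DNBS_CEC lower in 5 of 6 (−0.84 to 0.04). Without DNBS sample 3 the first count was 3 of 6, and without DNBS_CEC sample 2 the second was 3 of 6.

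**Figure D2:**
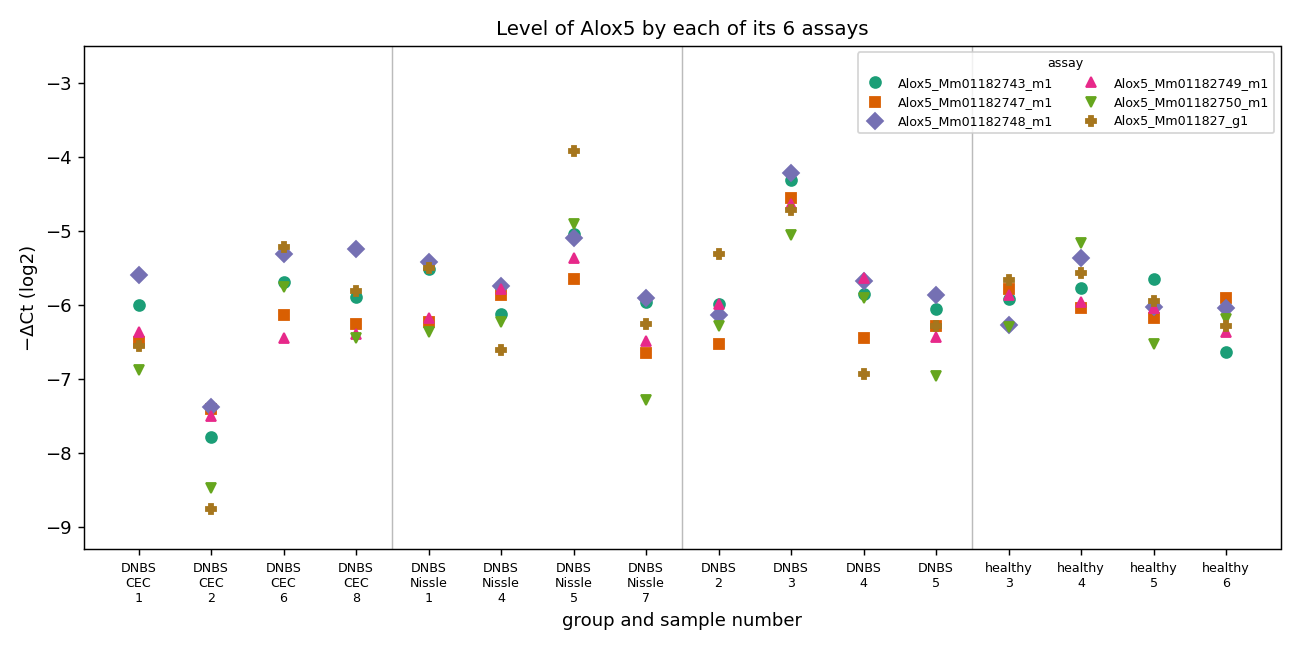
Level of Alox5 (−ΔCt, log2 scale) read by each of its 6 assays, 1 symbol per assay, in the 16 samples grouped from DNBS_CEC on the left to healthy on the right. All 6 assays place DNBS_CEC sample 2 low and DNBS sample 3 high, and within a sample they spread over 0.64 to 1.73 cycles.

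Lta4h, the next enzyme towards leukotriene B, was the steadiest of the genes. Its −ΔCt was −1.27, −0.83, −0.47 and −0.40 in DNBS_CEC samples 1, 2, 6 and 8, and −0.89, −1.10, −0.58 and −0.60 in DNBS_Nissle samples 1, 4, 5 and 7. It was −0.91, −0.93, −0.62 and −0.56 in DNBS samples 2, 3, 4 and 5, against −0.60, −0.65, −0.21 and −0.57 in healthy samples 3, 4, 5 and 6. In each DNBS group 2 samples lay below every healthy sample and the other 2 did not. The mean was −0.74 ± 0.40 in DNBS_CEC, −0.79 ± 0.25 in DNBS_Nissle and −0.75 ± 0.19 in DNBS, against −0.51 ± 0.20 in healthy samples. The mean of the DNBS groups differed from healthy by −0.25 ± 0.20, with a 95% interval of −0.68 to 0.18 (limma adjusted p = 0.599). Between DNBS_CEC and DNBS the difference was 0.01 (95% interval −0.52 to 0.54), and between DNBS_Nissle and DNBS it was −0.04 (−0.57 to 0.49). Its values in DNBS_CEC sample 2 and DNBS_Nissle sample 4 are written with fewer decimals than nearly all others, and with such values left out the difference between DNBS_Nissle and DNBS was 0.08.

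Anxa1, the gene of annexin A1, had its highest mean in DNBS_CEC and its lowest in healthy samples. Its −ΔCt was 1.49, 2.04, 0.47 and 0.89 in DNBS_CEC samples 1, 2, 6 and 8, and 0.51, 1.70, 0.64 and 1.23 in DNBS_Nissle samples 1, 4, 5 and 7. It was 0.12, 1.55, 1.0 and 0.66 in DNBS samples 2, 3, 4 and 5, against −0.21, 0.04, 0.39 and 0.87 in healthy samples 3, 4, 5 and 6. DNBS_CEC sample 2 and DNBS_Nissle sample 4, among the lowest for Ptgs1 and Ptges, had the 2 highest Anxa1 levels of all 16 samples. The highest healthy sample lay above some samples of each DNBS group, so no pair of groups was separate. The order of means was DNBS_CEC (1.22 ± 0.69), DNBS_Nissle (1.02 ± 0.55), DNBS (0.83 ± 0.60) and healthy (0.27 ± 0.47).

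DNBS_CEC exceeded healthy in Anxa1 by 0.95 ± 0.41, or 1.93-fold, with a limma p of 0.0344 before and 0.664 after adjustment. The mean of the 3 DNBS groups exceeded healthy by 0.75 ± 0.33, or 1.68-fold, with a limma p of 0.0392 before and 0.282 after adjustment. DNBS_Nissle and DNBS exceeded healthy by 0.74 ± 0.41 and 0.56 ± 0.41 (limma adjusted p = 0.351 and 0.743). These differences share the same 4 healthy samples. The difference of DNBS_CEC from healthy was 0.68 without DNBS_CEC sample 2. Muc1, the epithelial marker, differed from healthy by 1.06 ± 0.60 in DNBS_CEC, 1.66 ± 0.60 in DNBS_Nissle and 0.83 ± 0.60 in DNBS (limma adjusted p = 0.664, 0.177 and 0.743). Without DNBS_CEC sample 2 and DNBS_Nissle sample 4, the Muc1 differences were 0.33 ± 0.40, 1.42 ± 0.40 and 0.83 ± 0.37. Its highest −ΔCt values, −0.42 and −1.27, were those of DNBS_CEC sample 2 and DNBS_Nissle sample 4, the samples highest in Anxa1. Kit, the only mast cell marker tested, differed from healthy by −0.95 ± 0.42, −0.85 ± 0.42 and −0.64 ± 0.42 in the same groups (limma adjusted p = 0.664, 0.303 and 0.684). Without DNBS_CEC sample 2 and DNBS_Nissle sample 4, the Kit differences were −0.58 ± 0.35, −0.63 ± 0.35 and −0.64 ± 0.33. Fcer1a, the other mast cell marker present, was detected in no sample outside DNBS. The 4 neutrophil markers tested had median differences from healthy of 3.25 in DNBS_CEC, 5.89 in DNBS_Nissle and 5.19 in DNBS. Those of the 4 monocyte and macrophage markers were −0.21, 0.45 and 0.54. The part of epithelial cells, mast cells, neutrophils or macrophages in the Anxa1 levels was not tested. The DNBS groups differed among themselves by 0.39 at most, with DNBS_CEC against DNBS at 0.39 ± 0.41.

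Side by side, none of the 6 genes passed a limma adjusted p of 0.05 in any of the 7 comparisons. Between DNBS and healthy, 0 of 6 passed, where 0.211% of the 473 genes tested did, and 0 of 6 had an unadjusted p under 0.05, where 11.2% did. Between DNBS_Nissle and healthy, 0 of 6 passed (1.9% of all genes), and Ptgs2 alone had an unadjusted p under 0.05 (18% of all genes). Between DNBS_CEC and healthy, 0 of 6 passed (0% of all genes), and Anxa1 alone had an unadjusted p under 0.05 (7.17%). For the mean of the 3 DNBS groups against healthy, 0 of 6 passed (1.92%), and again Anxa1 alone was under 0.05 unadjusted (16.6%). Between DNBS_CEC and DNBS and between DNBS_Nissle and DNBS, 0 of 6 passed (0% of all genes in each) and 0 of 6 had an unadjusted p under 0.05 (3.67% and 1.63%). Between DNBS_CEC and DNBS_Nissle, 0 of 6 passed (0%), and Ptgs2 alone was under 0.05 unadjusted (5.34%). In each comparison at most 1 of the 6 genes had an unadjusted p under 0.05. The groups compared overlapped for each of the 6 genes, whereas they did not overlap for 4.43% of all genes in DNBS_CEC, 12.5% in DNBS_Nissle, 10.8% in DNBS and 1.92% in the mean of the 3, each against healthy. Among the DNBS groups that share was 2.04% for DNBS_CEC against DNBS, 1.63% for DNBS_Nissle against DNBS and 2.05% for DNBS_CEC against DNBS_Nissle.

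The median log2 difference of the 6 genes from healthy was −0.10 in DNBS_CEC, 0.00 in DNBS_Nissle and 0.52 in DNBS, beside medians of −0.15, −0.07 and 0.04 over all genes tested. By sign, 2 of the 6 genes were higher than in healthy samples in DNBS_CEC (33.3% of all genes), 3 in DNBS_Nissle (44.4%), 5 in DNBS, with Lta4h the exception (53.1%), and 3 in the mean of the 3 (42.4%). Against DNBS, the median of the 6 genes was −0.63 in DNBS_CEC and −0.06 in DNBS_Nissle, beside −0.24 and −0.07 over all genes. Ptgs1, Ptgs2, Ptges and Alox5 were lower and Lta4h and Anxa1 higher in DNBS_CEC than in DNBS by sign, where 26.1% of all genes were higher. In DNBS_Nissle 2 of the 6 were higher than in DNBS (43.1% of all genes), and 3 of the 6 were higher in DNBS_CEC than in DNBS_Nissle (36.1%). With the mean of all detected genes as reference, the median of all genes between DNBS_CEC and DNBS lay 0.28 higher, and these 6 directions held. With the samples DNBS_CEC 2 and DNBS_Nissle 4 left out, Ptgs1 was 0.04 higher in DNBS_CEC than in DNBS.

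**Figure D3:**
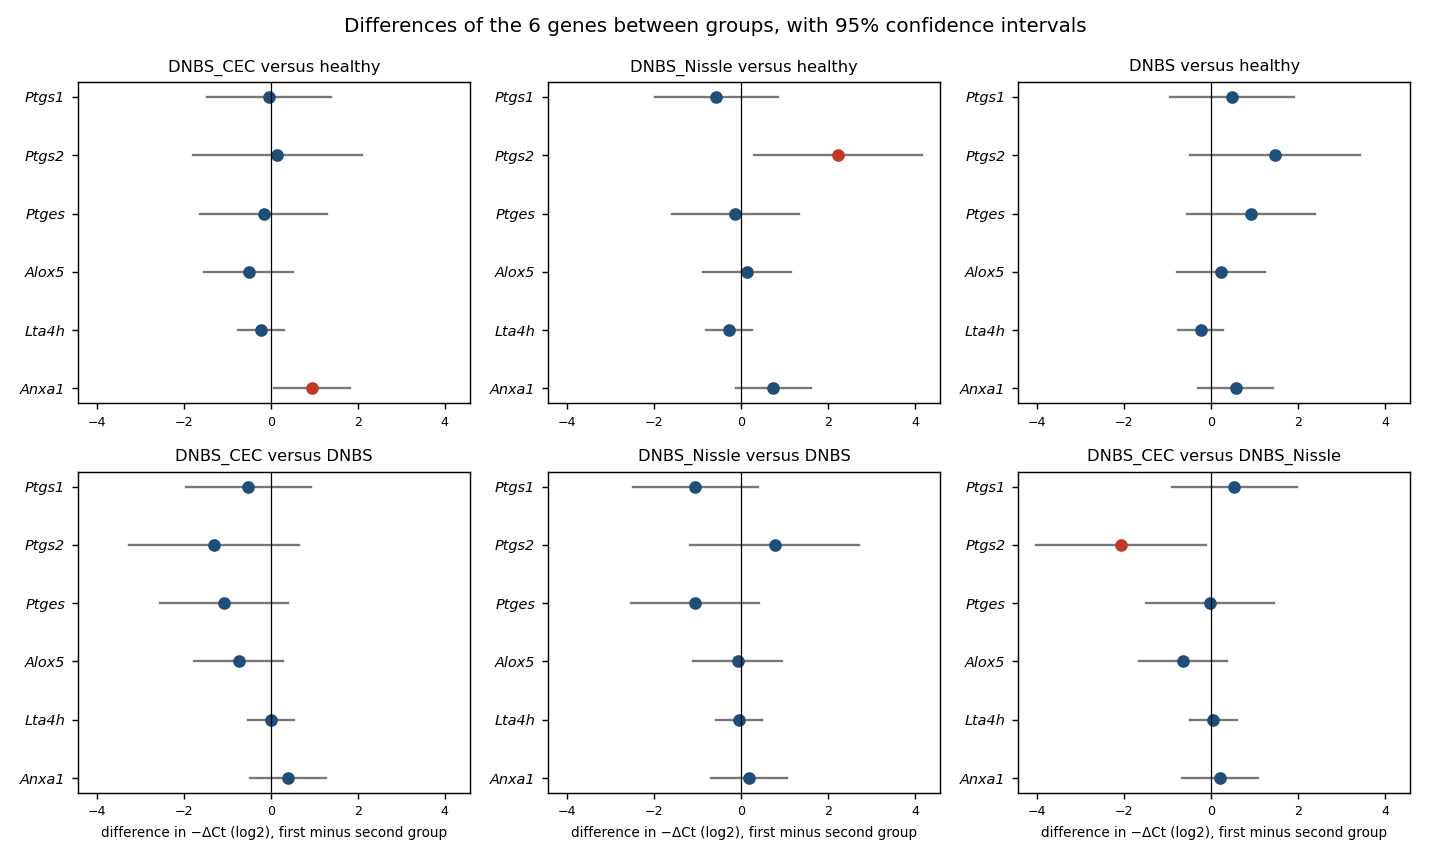
Difference in −ΔCt (log2, first group minus second) of each of the 6 genes in 6 comparisons, with 95% confidence intervals; red points have an unadjusted limma p under 0.05. Only Ptgs2 in 2 comparisons with DNBS_Nissle and Anxa1 in DNBS_CEC against healthy have intervals that leave out 0, and none passes after adjustment.

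Other genes of the same pathway were taken from lists of prostanoid synthases, lipoxygenases, eicosanoid receptors, annexins with their receptors, and phospholipases A2. Outside the 6 members, 8 of them were in the table, all 8 were tested in every comparison, and 0 passed the limma adjusted threshold in any. Their median difference from healthy was 0.05 in DNBS_CEC, 1.01 in DNBS_Nissle and 0.76 in DNBS, and 4, 5 and 6 of the 8 were higher by sign (33.3%, 44.4% and 53.1% of all genes). Those with an unadjusted p under 0.05 were Fpr1 and Pla2g7 between DNBS_Nissle and healthy, and Alox5ap and Pla2g7 both between DNBS and healthy and for the mean of the 3 DNBS groups against healthy. Against DNBS, 1 of the 8 was higher by sign in DNBS_CEC (26.1% of all genes) and 3 in DNBS_Nissle (43.1%), with no unadjusted p under 0.05.

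Alox5ap, the membrane protein that presents arachidonic acid to 5-lipoxygenase, had −ΔCt values of −3.76, −0.88, −4.27 and −3.87 in DNBS samples 2, 3, 4 and 5, against −5.67, −4.35, −5.04 and −5.00 in healthy samples 3, 4, 5 and 6. All 4 DNBS samples were above all 4 healthy samples, a separation that 10.8% of all genes tested showed in this comparison. The difference was 1.83 ± 0.67, or 3.54-fold, with a limma p of 0.0155 before and 0.285 after adjustment. Without DNBS sample 3 it was 1.05 ± 0.51. Alox5ap was −3.27, −5.31, −4.31 and −5.36 in DNBS_CEC samples 1, 2, 6 and 8, and −3.00, −3.90, −3.31 and −4.59 in DNBS_Nissle samples 1, 4, 5 and 7. Of the DNBS_CEC samples, 2 lay within the healthy range and 2 above it. Alox5 itself differed between DNBS and healthy by 0.23 ± 0.48, and whether the 2 genes' differences from healthy were unequal was not tested.

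Pla2g7 encodes the phospholipase that degrades platelet-activating factor. It was −2.56, −1.07, −2.65 and −3.19 in DNBS samples 2, 3, 4 and 5, against −3.43, −3.63, −3.93 and −3.49 in healthy samples 3, 4, 5 and 6, with no overlap. The difference was 1.25 ± 0.46, with a limma p of 0.0152 before and 0.285 after adjustment, and was 0.82 ± 0.41 without DNBS sample 3. In DNBS_Nissle it exceeded healthy by 0.98 ± 0.46, with a limma p of 0.0494 before and 0.275 after adjustment. That difference was 0.72 ± 0.47 without DNBS_Nissle sample 4, with a limma p of 0.149 before adjustment. Of the fits with a sample left out, only that without DNBS_Nissle sample 7 kept an unadjusted limma p under 0.05 (0.0167). In DNBS_CEC the difference from healthy was 0.86 ± 0.46 (limma adjusted p = 0.664). DNBS_Nissle sample 7, at −3.52, and DNBS_CEC sample 8, at −3.47, lay within the healthy range. For the mean of the 3 DNBS groups against healthy, Pla2g7 stood at 1.03 ± 0.37 and Alox5ap at 1.20 ± 0.55 (limma adjusted p = 0.202 and 0.29).

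Fpr1, a formyl peptide receptor on which annexin A1 acts and which neutrophils carry, was −2.05, −2.63, −3.11 and −4.92 in DNBS_Nissle samples 1, 4, 5 and 7, against −4.69, −4.0, −6.03 and −4.35 in healthy samples 3, 4, 5 and 6. Of the 4 DNBS_Nissle samples, 3 were above every healthy sample. The difference was 1.59 ± 0.70, or 3.01-fold, with a limma p of 0.0382 before and 0.258 after adjustment. Against the same healthy samples it was 0.21 ± 0.70 in DNBS_CEC and 1.38 ± 0.70 in DNBS. With 1 sample left out, the DNBS_Nissle difference was lowest without healthy sample 5, with a value of 1.17 and a limma p of 0.129 before adjustment. The DNBS_CEC difference turned to −0.21 without DNBS_CEC sample 1 and to the same value without healthy sample 5, and the DNBS difference was 0.86 without DNBS sample 3. The summed neutrophil markers were at least 2.87 in each DNBS_Nissle sample and at most 0.0752 in each healthy sample, and their part in the Fpr1 levels was not tested. Of the 4 neutrophil markers tested, 3 passed the limma adjusted threshold between DNBS_Nissle and healthy, all of them higher in DNBS_Nissle. Of all 473 genes tested there, 1.9% passed, and 0 did without DNBS_Nissle sample 1 or without healthy sample 3 or 5.

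**Figure D4:**
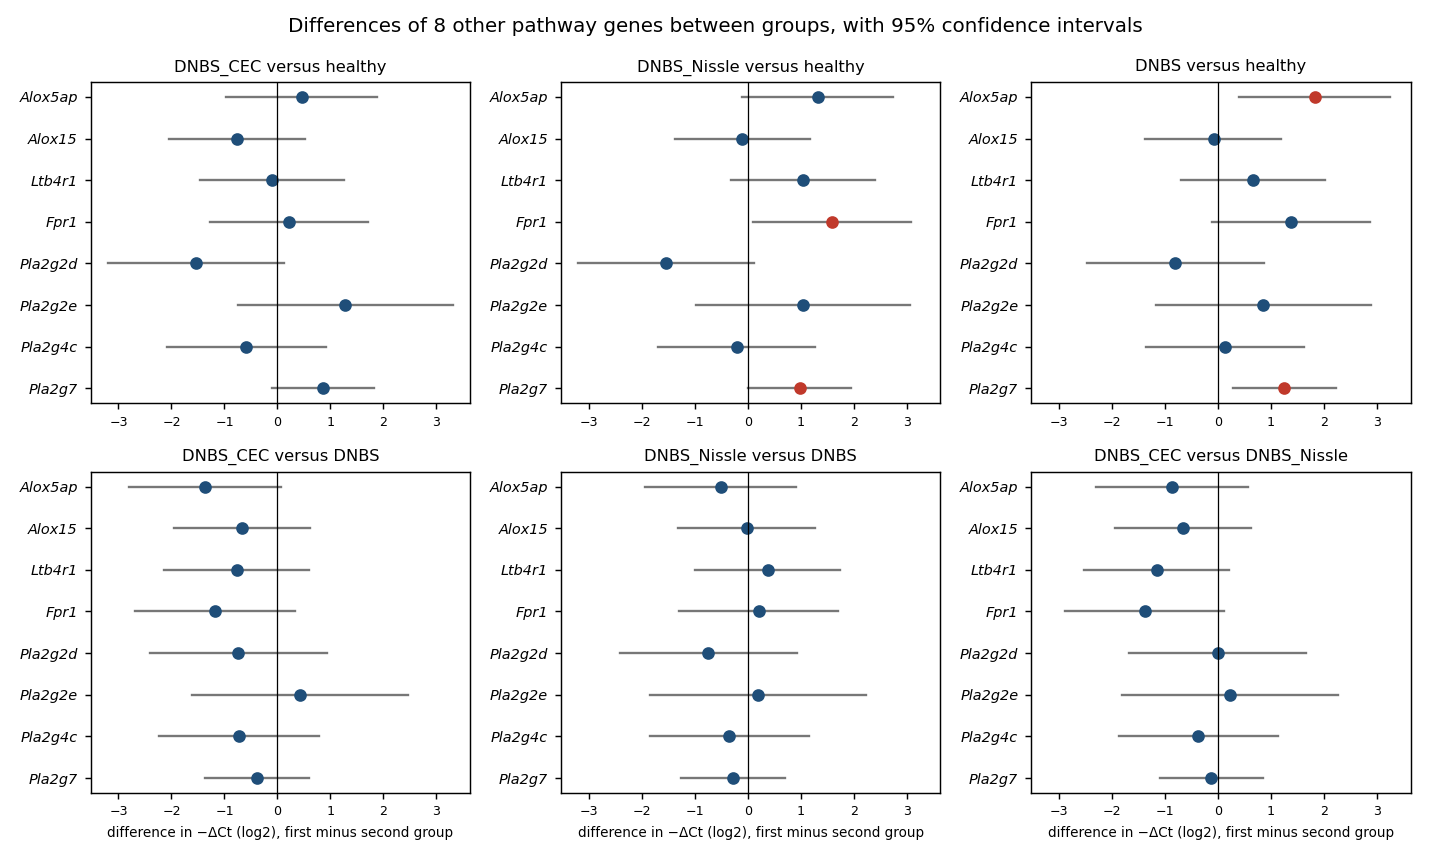
Difference in −ΔCt (log2, first group minus second) of the 8 other pathway genes in 6 comparisons, with 95% confidence intervals; red points have an unadjusted limma p under 0.05. Alox5ap and Pla2g7 in DNBS, and Fpr1 and Pla2g7 in DNBS_Nissle, lie above healthy with an unadjusted p under 0.05, and none passes after adjustment.

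For each of the 6 genes, the genes whose −ΔCt over the 16 samples was most like it were listed by Pearson's r among 422 other genes detected in every sample, as a description of samples that share their groups and their reference genes. Ptgs2 was most like Tnfaip6 (r = 0.84), Il1b (0.83), Il1rn, Mefv and Tnc (0.81 each). Il1b encodes the cytokine interleukin 1 beta and Il1rn its receptor antagonist. Ptgs1 was most like Tollip (0.94), then the Tnfsf12 assay, which also reads the readthrough transcript with Tnfsf13, Nfatc3 and Mapk8 (0.91 each), and Ptges most like Fcgr2b (0.88), Bcl6 and Ptafr (0.87 each) and Fgf2 (0.85). Alox5 was most like Vip (0.83), which encodes the neuropeptide vasoactive intestinal peptide, Tgfb1 and Trip6 (0.81 each) and Il1rap and Gal (0.80 each). Lta4h was most like the bone morphogenetic protein genes Bmp4 (0.84) and Bmp6 (0.81), then Chst1 (0.77), Ptn and Kit (0.75 each). Anxa1 was most like Lrp8 (0.86), the reference gene Pgk1 (0.83), the mucin gene Muc1 (0.80), and Hif1a and Hgf (0.77 each). With the mean of all detected genes as reference, 5 of the first 5 names were listed again for Alox5, 3 each for Ptgs2 and Anxa1, and 1 for Lta4h. Without DNBS_CEC sample 2 and DNBS_Nissle sample 4, over 14 samples, r was 0.55 to 0.70 for the genes named for Ptgs1, 0.59 to 0.77 for Ptges, 0.54 to 0.73 for Alox5 and 0.61 to 0.80 for Anxa1, whereas it was 0.81 to 0.86 for Ptgs2 and 0.74 to 0.84 for Lta4h.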

How the data were processed

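RNA of 16 samples was isolated with a mirVana kit and measured on OpenArray cards, per the labels' protocols. The authors deposited raw cycle thresholds (Ct; unit recorded as other), with no normalization and 40 for no amplification; thresholding software is not given in the sources used here. The first line of the file, per the file headers, calls it a truncated example of the matrix. Of the 10368 values, 194 (1.87%) match, within 2e-06, what averaging the group's other 3 values gives (3 of 176 member values, all in healthy sample 3), and 5.52% of values under 40 have 4 decimals or fewer (8 member values). The digit pair 40 is lost from assay names such as Alox5_Mm011827_g1 and Anxa1_Mm004225_m1.

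A Ct above 28 was set to 28 and counted as not detected. Assays of a gene were averaged. −ΔCt was the mean Ct of 11 reference genes (Tbp, Ppia, Polr2a, Pgk1, Ipo8, Hprt1, Gusb, Gapdh and Actb among them) minus the gene's Ct, on the log2 scale. Ywhaz and Rplp2 were left out of the reference for their spread within groups (SD 3.47 and 1.01 cycles, against 0.27 to 0.571 for the other genes). Genes with at most 1 undetected sample in each group compared were tested with limma (limma 3.58.1, R 4.3.3). For each of 7 comparisons, the 4 group means were fitted to all 16 samples over the genes tested in it. Benjamini-Hochberg adjustment ran over all those genes (threshold 0.05), and intervals are 95% intervals. The model was checked on simulated data with independent noise and a spread per gene that was equal in all groups. The group SDs of Ptgs2 and Ptges were unequal, so that check does not cover them. Ct values give no read depth, and 4 samples per group limit the precision.

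Members, lists, tests and alternatives were chosen with earlier results of these data known. Leaving samples out of the single-assay and marker gene fits and of the correlations was added after seeing the data. The named pathway genes are those with an unadjusted p under 0.05 in the comparison described, and the most alike genes are those among the first 5 by correlation, of which 1 item is not reported here. Sample numbers recur across groups, but of 10 pairs with the same number (r of −0.50 to 0.34) only 4 had r over 0.1, so they were not treated as pairs.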

Additional observations from a re-analysis of the deposited data

Results flagged for a closer look

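In a set of 4 samples, 1 sample was taken to stand away from the others where its gap to the nearest, over the whole range, passed Dixon's 95% critical value for 4 samples. Of 48 sets (the 6 genes and the 6 Alox5 assays in each group), 7 did, where chance gives about 2.4, and the Alox5 assays are not independent of each other or of the gene.

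DNBS_CEC sample 2 was low for Ptgs1 at −5.46, with the other 3 samples of its group at −3.36 to −3.16. It was also low by 3 Alox5 assays: −7.78 by Alox5_Mm01182743_m1 (others −6.00 to −5.69), −7.38 by Alox5_Mm01182748_m1 (others −5.59 to −5.25) and −7.50 by Alox5_Mm01182749_m1 (others −6.44 to −6.37).

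DNBS sample 3 was high for Alox5 at −4.58, with the other 3 DNBS samples at −6.31 to −6.04. It was high by the assays Alox5_Mm01182743_m1 at −4.31 (others −6.05 to −5.85) and Alox5_Mm01182747_m1 at −4.56 (others −6.53 to −6.28). Its summed neutrophil markers were 35.7 on the linear scale, against 0.326 to 2.06 in the other DNBS samples, and their part in these levels was not tested.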

How the results depend on the processing

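None of the 6 genes passed in the 7 comparisons under the settings tried: of 840 differences recomputed, 765 kept direction and side of the threshold, 75 changed sign and 0 crossed the threshold; the cause was not tested. The following are adjusted-p counts over all genes and log2 differences.

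Genes passing between DNBS and healthy numbered 1, but 0 with the mean of all detected genes or Gapdh alone as reference, 2 with no filter on low levels or with only the groups compared in the fit, and 0 to 7 with a sample left out (7 without DNBS 4, and 0 without DNBS 2, 3 or 5 or healthy 3, 4 or 6). Between DNBS_Nissle and healthy they numbered 9, but 17 with only the groups compared and 0 to 11 with a sample left out (0 without DNBS_Nissle 1 or healthy 3 or 5, and 4 without healthy 4). For the mean of the DNBS groups against healthy they numbered 9, but 16 with no filter, 4 without filled values, 5 without short values and 0 to 10 with a sample left out (5 or fewer without DNBS 2 or 5, any DNBS_Nissle sample or any healthy sample). That comparison already holds every group, so fitting only its groups is the same fit. Between DNBS_CEC and DNBS_Nissle they numbered 0, but 1 with a limit of Ct 30. With the replicate number as a block, the first 3 counts were 0, 0 and 0, and under that block Ptges and Alox5 in the mean of the DNBS groups against healthy were −0.27 and 0.31, Lta4h between DNBS_CEC and DNBS −0.03, and Alox5 between DNBS_Nissle and DNBS 0.08. The block changed no call of the 6 genes. Over the settings other than leaving 1 sample out, Ptges ran from −2.39 to −0.65 between DNBS_CEC and DNBS, beside −1.07 in the main fit. Between DNBS_CEC and healthy Ptges ran from −1.38 to 0.26, beside −0.16. Ptgs2 between DNBS_Nissle and healthy ran from 2.18 to 3.35, beside 2.23. Without DNBS_CEC 2 and DNBS_Nissle 4, chosen after seeing the data, 2 genes passed between DNBS and healthy and 1 for the mean of the DNBS groups.

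Signs that turned with another reference were small differences. With Ywhaz and Rplp2 in the reference, Ptgs1, Ptges and Lta4h in DNBS_CEC against healthy were 0.19, 0.07 and 0.00, Ptgs1 and Alox5 in the mean of the DNBS groups 0.06 and 0.05, and Ptges between DNBS_CEC and DNBS_Nissle 0.23. With the mean of all detected genes, Ptgs1 in DNBS_CEC against healthy was 0.09, Alox5 and Lta4h between DNBS_Nissle and DNBS 0.01 and 0.06, and Ptges between DNBS_CEC and DNBS_Nissle 0.16. With Gapdh alone, Ptgs1 in DNBS_CEC and Ptges in DNBS_Nissle against healthy were 0.03 and 0.02, Ptgs1 and Alox5 in the mean of the DNBS groups 0.05 and 0.04, Alox5 and Lta4h between DNBS_Nissle and DNBS 0.04 and 0.08, and Lta4h between DNBS_CEC and DNBS_Nissle −0.05. These references moved the median of all genes by −0.15 to 0.28.

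Without short values, Lta4h was 0.08 between DNBS_Nissle and DNBS and −0.02 between DNBS_CEC and DNBS_Nissle. With the single Alox5 assay of lowest Ct, Alox5 was 0.03 in DNBS_CEC against healthy and 0.29 in the mean of the DNBS groups. Without DNBS_CEC 2 and DNBS_Nissle 4, Ptgs1 and Ptges against healthy were 0.52 and 0.26 in DNBS_CEC and 0.15 and 0.59 in DNBS_Nissle, Ptgs1 and Alox5 in the mean of the DNBS groups 0.38 and 0.13, Ptgs1 between DNBS_CEC and DNBS 0.04, Lta4h and Anxa1 between DNBS_Nissle and DNBS 0.07 and −0.04, and Lta4h between DNBS_CEC and DNBS_Nissle −0.02.

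With 1 sample left out in turn, these differences changed sign. For DNBS against healthy, the difference ranged over −0.16 to 0.41 for Alox5. For DNBS_CEC against healthy, the difference ranged over −0.25 to 0.52 for Ptgs1, −0.22 to 0.38 for Ptgs2 and −0.37 to 0.26 for Ptges. For DNBS_Nissle against healthy, the difference ranged over −0.93 to 0.15 for Ptgs1, −0.82 to 0.59 for Ptges and −0.14 to 0.34 for Alox5. For the mean of the DNBS groups against healthy, the difference ranged over −0.21 to 0.20 for Ptgs1, −0.02 to 0.45 for Ptges and −0.18 to 0.11 for Alox5. For DNBS_CEC against DNBS, the difference ranged over −0.73 to 0.04 for Ptgs1 and −0.10 to 0.19 for Lta4h. For DNBS_Nissle against DNBS, the difference ranged over −0.37 to 0.30 for Alox5, −0.11 to 0.07 for Lta4h and −0.06 to 0.42 for Anxa1. For DNBS_CEC against DNBS_Nissle, the difference ranged over −0.19 to 1.09 for Ptgs1, −0.75 to 0.66 for Ptges, −0.06 to 0.23 for Lta4h and −0.07 to 0.46 for Anxa1.

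The precision is limited by 4 samples per group and by 1 assay for each of the genes but Alox5.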
